A study of Mus musculus with 2 samples.

Results

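Low-cycle Mki67+ cells are cells that carry messenger RNA of the proliferation marker Mki67 and little or no RNA of the genes that build the DNA replication and mitotic machinery. They were sorted splenic T cells of mice, and were chosen by 3 conditions. A cell needed at least 1 unique molecular identifier (UMI, a barcode that stands for 1 captured RNA molecule) of Mki67. It could hold at most 2 UMIs summed over an S phase set (Pclaf, Rrm2, Tyms, Tk1, Mcm3, Mcm5, Mcm6, Pcna, Gins2, Dut), and at most 2 over a G2/M set (Birc5, Ube2c, Nusap1, Cenpf, Ccnb1, Ccnb2, Cdk1, Top2a, Tpx2, Hmmr). The rule found 2223 such cells among 26581 kept cells, which had 200 genes or more and a mitochondrial UMI share of 25% or less. Of these, 893 of 12834 came from the LatY136F CD45-KO library and 1330 of 13747 from the LatY136F library. UMIs of a set were allowed within the limits, and 43.3% of these CD45-KO cells and 33.6% of these LatY136F cells had none of either set.

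Both libraries carry LatY136F, a point mutation in the adaptor protein LAT that is known to cause a T helper 2-type lymphoproliferation, and the LatY136F CD45-KO mice also lack CD45, a transmembrane tyrosine phosphatase made from Ptprc. The mice were 8 to 9 weeks old, spleen cells were sorted as CD3+CD5+, a CD4 antibody was in the stain as well, and RNA was captured with the BD Rhapsody whole transcriptome assay. There was 1 library per genotype, and the sources used here do not say how many mice stand behind each, so no value below has a replicate and no test between genotypes could be made. Cells of 1 library are not replicates. All intervals are 95% intervals for counting error alone. The deposited libraries held 29268453 and 35300371 UMIs, with a median of 1991 and 2153 UMIs per cell, in the order CD45-KO and LatY136F. The knocked-out gene Ptprc (chr1:138062861-138175708, minus strand, GRCm38) was still read in low-cycle Mki67+ cells of the library labelled CD45-KO, at 1213 UMIs per 1000000 (counts per 1000000, CPM), against 1849 CPM in those of LatY136F; the sources used here do not say which part of the gene the knockout changes. Of all cell barcodes, 223 occurred in both libraries, 3 of them on low-cycle Mki67+ cells.

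Mki67 (chr7:135689784-135716361, minus strand, GRCm38) encodes Ki-67, a protein that coats chromosomes in mitosis. Its transcript is known to be made mainly in S, G2 and M phase and the protein to decline gradually after cells leave the cycle, so that a cell can hold Ki-67 for some time after its last division. Transcripts of replication genes such as Rrm2 and Tyms, and of mitotic genes such as Cdk1 and Ccnb1, are switched on in turn by E2F factors and by the MuvB complexes with B-Myb and FOXM1, and fall in cells that rest. The question addressed here is whether such cells look like cells that have recently divided when set against cells of the same library without Mki67.

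Promoter sequences were searched for 2 kinds of element by which these gene groups are known to be controlled. In late cell cycle genes this is the cell cycle genes homology region (TTTGAA or TTCGAA) with CCAAT boxes. In replication genes it is E2F sites, searched only as TTTCCCGC or TTTGGCGC, so other forms of the site were not counted. The windows below hold the 250 bases upstream of the annotated start in the RefSeq table for GRCm38.p6, printed 5′ to 3′ on the gene's strand, with every match of these motifs on either strand in capitals. Mki67 is the gene that defines the cells (chr7:135716380-135716629, minus strand), Cdk1 stands for the G2/M set (chr10:69352913-69353162, minus strand), Hmgb2 for cycle-related genes outside the rule that were higher in the chosen cells (chr8:57511593-57511842, plus strand), and Mcm6 for the S set (chr1:128359706-128359955, minus strand).
Mki67: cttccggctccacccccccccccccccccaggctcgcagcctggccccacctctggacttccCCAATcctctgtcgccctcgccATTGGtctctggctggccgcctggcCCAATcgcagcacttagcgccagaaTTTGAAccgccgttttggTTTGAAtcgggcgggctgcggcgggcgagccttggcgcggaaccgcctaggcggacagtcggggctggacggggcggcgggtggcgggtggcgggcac
Cdk1: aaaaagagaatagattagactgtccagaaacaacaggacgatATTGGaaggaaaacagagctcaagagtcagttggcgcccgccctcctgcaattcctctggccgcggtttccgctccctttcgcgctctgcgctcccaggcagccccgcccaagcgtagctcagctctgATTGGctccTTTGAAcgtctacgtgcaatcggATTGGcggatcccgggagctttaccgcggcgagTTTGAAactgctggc
Hmgb2: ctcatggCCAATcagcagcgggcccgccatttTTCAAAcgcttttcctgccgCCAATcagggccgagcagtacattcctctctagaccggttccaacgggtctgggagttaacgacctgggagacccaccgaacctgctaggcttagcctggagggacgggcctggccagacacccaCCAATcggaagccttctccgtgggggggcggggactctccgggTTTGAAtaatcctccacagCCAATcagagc
Mcm6: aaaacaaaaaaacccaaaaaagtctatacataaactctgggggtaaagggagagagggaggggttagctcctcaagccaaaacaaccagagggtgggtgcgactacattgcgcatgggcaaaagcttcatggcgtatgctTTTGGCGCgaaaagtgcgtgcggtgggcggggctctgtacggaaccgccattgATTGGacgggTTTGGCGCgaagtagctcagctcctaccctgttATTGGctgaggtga
Mki67 had 2 matches to the homology region and 3 CCAAT boxes, Cdk1 had 2 and 3, and Hmgb2 had 2 and 4. Mcm6 had 0 of the first, 2 CCAAT boxes and 2 E2F matches. Over all 32841 windows of the table, 17.1% held a homology region match, 33.9% held CCAAT, 6.02% held both and 1.30% held an E2F match. The G2/M set had a window for 9 of 10 genes, of which 4 held both of the first 2 elements and 0 an E2F match. The S set also had 9 of 10, with 0 homology region matches and 2 with an E2F match, Mcm6 among them. CCAAT was held by 7 of these 9 G2/M genes and by 6 of the 9 S genes. A match describes these letters in this window and shows no binding.

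Low-cycle Mki67+ cells carried T cell markers about as often as the depth-matched cells without Mki67 described below (matched cells). Cd3e, which encodes a CD3 chain, was detected in 75.1% of them and 73.2% of matched cells in the CD45-KO library, and in 81.4% and 80.5% in the LatY136F library. Cd4 was detected in 70.3% of low-cycle Mki67+ and 68.2% of matched CD45-KO cells, and in 68.7% and 69.8% in LatY136F. Cd8a gave a UMI in 0 of 893 CD45-KO cells, which allows a share of cells with a UMI of up to 0.412%, and in 2 of 1330 LatY136F cells. Cd8b1, the other CD8 chain gene, gave a UMI in 8 and 10 of these cells, and in 4 and 10 matched cells. Gata3, the T helper 2 regulator, was detected in 83.9% of low-cycle Mki67+ cells and 82.8% of matched cells in the CD45-KO library, and in 87.2% and 85.4% in the LatY136F library. Foxp3 was found in 4 and 13 low-cycle Mki67+ cells. By 2 or more UMIs over 8 B, plasma and myeloid markers, 9 and 2 low-cycle Mki67+ cells were flagged, against 16 and 5 of the matched cells. Flagged cells are called non-T cells below. The flag did not ask for absence of T cell RNA, so T cells with free RNA and doublets could meet it. Ms4a1 (B cells), S100a8 (myeloid cells) and Siglech (plasmacytoid dendritic cells) were at 0 in low-cycle Mki67+ cells of both libraries, while other members of their lists were read. Cd74, the invariant chain gene, gave 752 UMIs in 112 CD45-KO cells and 339 in 183 LatY136F cells, and Jchain, a plasma cell gene, 1350 in 15 and 4 in 4. The 11 B and plasma cell markers summed to 1149 and 209 CPM in CD45-KO and LatY136F low-cycle Mki67+ cells, and the 10 myeloid markers to 281 and 185 CPM.

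Each low-cycle Mki67+ cell was set against 1 cell of the same library with 0 Mki67 UMIs, under the same limits on both sets and with the nearest total UMI count. The match is on depth, since a cell read more deeply has more chance to show Mki67. The median depth was 2184 UMIs in low-cycle Mki67+ cells and in their matched cells of the CD45-KO library, and 2352.5 in both groups of the LatY136F library. All Mki67-0 cells under the limits had medians of 1927 and 2001. Median genes per cell were 1218 and 1222 for low-cycle Mki67+ and matched cells in CD45-KO, and 1303.5 and 1294.5 in LatY136F. The median mitochondrial share was lower in low-cycle Mki67+ cells, at 8.85% against 9.58% in CD45-KO and 8.34% against 8.86% in LatY136F.

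Low-cycle Mki67+ cells made up 6.96% of the CD45-KO library (interval 6.52 to 7.41%) and 9.67% of the LatY136F library (9.19 to 10.2%). There is no second library of either genotype to set this difference against. Cells with any Mki67 UMI were 9.53% and 16.9%, so that low-cycle Mki67+ cells were 73.0% of Mki67-positive cells in CD45-KO (70.4 to 75.5%) and 57.4% in LatY136F (55.3 to 59.4%). Mki67-positive cells over a limit were 2.57% and 7.19%. A sum over a limit is called a cycling programme here. Cells just over it lay close to cells just inside it in S phase and G2/M genes outside the rule, as given below. After each cell was thinned to 1000 UMIs, the low-cycle Mki67+ share was 4.42% of 12475 CD45-KO cells and 5.80% of 13313 LatY136F cells, with 359 and 434 shallower cells left out, and their share of Mki67-positive cells was 77.1% and 61.6%.

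The share followed depth in both libraries. In CD45-KO it was 3.06% below 1000 UMIs, 5.51% from 1000 to 2000, 8.27% from 2000 to 4000 and 11.6% from 4000 to 8000. In LatY136F it was 4.84%, 7.64%, 11.8% and 11% over the same bins. Above 8000 UMIs, only 7 of 116 CD45-KO cells and 1 of 246 LatY136F cells met the rule, while 81.9% and 89.8% were Mki67-positive over a limit. A fixed limit of 2 UMIs is easier to exceed in a deep cell, so the 2 shares are tied to each other through depth.

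**Figure D1:**
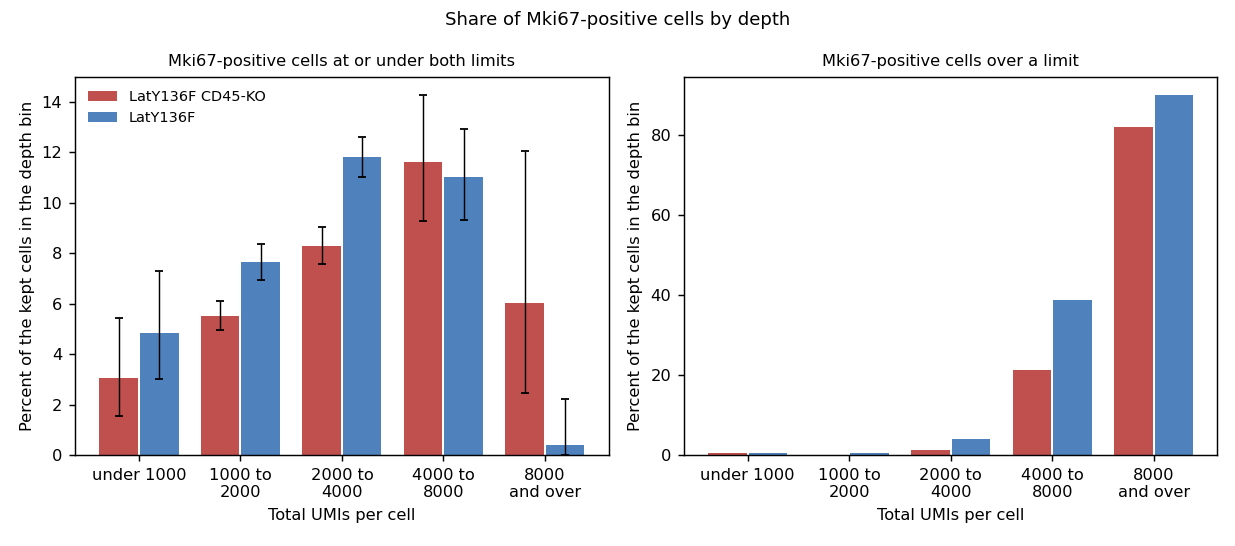
Share of kept cells (percent) that were low-cycle Mki67+ and that were Mki67-positive over a limit, by total UMIs per cell, in each library; lines on the low-cycle Mki67+ bars are 95% exact binomial intervals. The low-cycle Mki67+ share is 11.6% in CD45-KO cells of 4000 to 8000 UMIs and 11% in LatY136F cells, and is lower above 8000 UMIs, where cells over a limit make up 81.9% and 89.8%.

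Mki67 was also read in T cells that carry RNA of Ccr7 and Lef1, genes known to be high in naive T cells. Of cells with a UMI of both and of a CD3 chain, a definition chosen after seeing the data, 19 of 142 had Mki67 in the CD45-KO library (13.4%, interval 8.25 to 20.1%) and 19 of 50 in the LatY136F library (38.0%, 24.7 to 52.8%). All kept cells had 9.53% and 16.9%, at a lower median depth (1991.5 and 2155 UMIs, against 2371 and 3292.5 in the cells with Ccr7 and Lef1). Of these cells 10 and 2 were low-cycle Mki67+. B-lineage cells, with UMIs of B cell markers and none of a CD3 chain, were too few for a background level of Mki67, which was read in 2 of 10 such cells of the CD45-KO library and 0 of 3 of the LatY136F library. Whether single Mki67 UMIs came from the cell or from free RNA was not tested.

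Most low-cycle Mki67+ cells held a single Mki67 molecule. In the CD45-KO library 682 cells (76.4%) had 1 UMI, 154 (17.2%) had 2 and 57 (6.38%) had 3 or more. In the LatY136F library the numbers were 1044 (78.5%), 218 (16.4%) and 68 (5.11%), and the highest count in either was 7. Mki67 stood at 5.28 and 4.99 UMIs per 10000 in low-cycle Mki67+ cells, against 16.4 and 13.8 in Mki67-positive cells over a limit. These values chose the cells and are a description.

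Within the limits, S set genes were seen more often than G2/M set genes. The S set was at 0 in 454, at 1 in 318 and at 2 in 121 CD45-KO cells, and at 0 in 625, 1 in 484 and 2 in 221 LatY136F cells. The G2/M set was at 0 in 736, 1 in 119 and 2 in 38 CD45-KO cells, and at 0 in 929, 1 in 320 and 2 in 81 LatY136F cells. Neither set gave a UMI in 387 CD45-KO cells (43.3%) and 447 LatY136F cells (33.6%). Pcna, the replication clamp, gave 223 UMIs in low-cycle Mki67+ and 279 in matched CD45-KO cells, and 377 and 429 in LatY136F. Top2a, the topoisomerase that untangles sister chromatids, gave 131 and 112 UMIs in CD45-KO, and 273 and 265 in LatY136F.

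Cells just inside and just outside the limit were close in S phase and G2/M genes outside the rule. Where the larger set sum was 2 (153 CD45-KO and 287 LatY136F cells), S phase genes outside the rule gave 8.62 and 9.24 UMIs per 10000, G2/M genes outside it 15.2 and 17.5, and the microtubule regulator gene Stmn1 0.389 and 0.723. Where that sum was 3 (56 and 145 Mki67-positive cells), the values were 9.79 and 9.31 for S phase, 17.1 and 17.8 for G2/M and 1.03 and 0.956 for Stmn1.

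Over genes of the cycle that the rule did not use, low-cycle Mki67+ cells lay beside the matched cells and far from Mki67-positive cells over a limit. S phase genes (47 listed) gave 8.67 UMIs per 10000 in low-cycle Mki67+ CD45-KO cells (8.29 to 9.06), against 8.16 in matched cells (7.79 to 8.54). In LatY136F they gave 8.64 (8.33 to 8.96) against 8.59 (8.29 to 8.91). Mki67-positive cells over a limit gave 45.6 and 49.3. The intervals of low-cycle Mki67+ and matched cells overlapped in both libraries. Low-cycle Mki67+ and matched cells were held to the same limits, and cells over a limit were chosen for their cycle RNA. Both the nearness and the gap are therefore a description.

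G2/M genes outside the rule (65 listed) were slightly higher than in matched cells. They gave 16.1 UMIs per 10000 in low-cycle Mki67+ CD45-KO cells (15.6 to 16.7), against 14.9 in matched cells (14.4 to 15.4), and 17.4 in LatY136F (17.0 to 17.8), against 16.7 (16.3 to 17.2). Mki67-positive cells over a limit had 107 in each library. Much of this sum came from genes detected in many cells without Mki67: Cdc25b, a phosphatase that activates CDK1, gave 755 and 695 UMIs in low-cycle Mki67+ and matched CD45-KO cells and 1410 and 1374 in LatY136F, and the condensin subunit gene Smc4 gave 768 and 682, then 1059 and 1055. Cyclin A2 (Ccna2), made from S phase to early mitosis, was close to 0, with 5 and 6 UMIs in CD45-KO and 29 and 16 in LatY136F, against 4.96 and 5.44 per 10000 in Mki67-positive cells over a limit.

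The gap to cells over a limit was also wide between cells of like depth, and the limits themselves part these classes. Between 4000 and 8000 UMIs, where Mki67-positive cells over a limit are most common by count, G2/M genes outside the rule gave 15.3 UMIs per 10000 in 78 low-cycle Mki67+ CD45-KO cells, 16.0 in their matched cells and 110.1 in 144 cells over a limit. In LatY136F the values were 17.4 in 133 low-cycle Mki67+ cells, 15.6 in their matched cells and 109 in 468 cells over a limit. The CD45-KO excess over matched cells was seen below 4000 UMIs (17.6 against 16.0 from 1000 to 2000, and 16.3 against 14.3 from 2000 to 4000), and not in this deeper bin.

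G2/M genes were highest in the cells with most Mki67. Cells with 3 or more Mki67 UMIs had 19.3 G2/M UMIs per 10000 in CD45-KO (17.2 to 21.7), those with 2 had 15.9 and those with 1 had 15.9. In LatY136F the values were 19.8 (17.9 to 21.9), 17.8 and 17.1. S phase genes were lowest in the same cells, at 7.30, 8.27 and 8.89 in CD45-KO and 7.61, 8.89 and 8.67 in LatY136F. The class with 3 or more Mki67 UMIs held only 57 and 68 cells, and the S phase differences were not tested. In both libraries the G2/M interval of cells with 3 or more Mki67 UMIs lay far below the 107 UMIs per 10000 of cells over a limit.

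**Figure D2:**
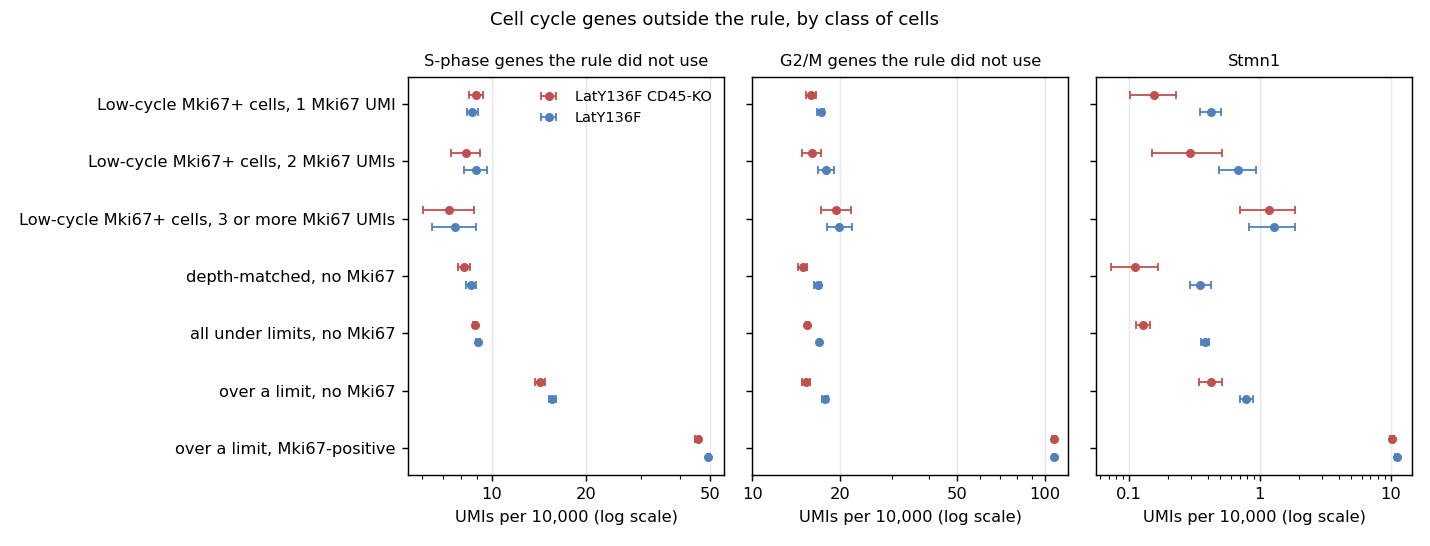
UMIs per 10000 (log axis) of S phase genes, G2/M genes and Stmn1, none of them used by the rule, in low-cycle Mki67+ cells with 1, 2 and 3 or more Mki67 UMIs, in matched, other Mki67-0 and Mki67-positive cells, for each library with 95% Poisson intervals. Low-cycle Mki67+ cells sit near the matched cells, held to the same limits, for the S phase and G2/M genes. Among low-cycle Mki67+ cells, Stmn1 is highest at 3 or more Mki67 UMIs, at 1.18 in CD45-KO and 1.28 in LatY136F.

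Stmn1 and Hmgb2, of the genes abundant in dividing cells, stood higher in low-cycle Mki67+ cells with intervals above 0 in both libraries. Stmn1 (chr4:134468320-134473843, plus strand, GRCm38) encodes stathmin, which destabilises microtubules and is abundant in dividing lymphocytes. It gave 56 UMIs in 44 low-cycle Mki67+ cells and 25 in 22 matched cells of CD45-KO, a log2 ratio of CPM of 1.16 (0.46 to 1.9). Values in brackets after a pair of groups are log2 ratios of this kind. In LatY136F it gave 178 UMIs in 136 cells against 121 in 106, or 51.8 against 35.2 CPM (0.56, 0.22 to 0.90). By Mki67 count of 1, 2 and 3 or more, Stmn1 stood at 0.155, 0.293 and 1.18 UMIs per 10000 in CD45-KO and 0.423, 0.682 and 1.28 in LatY136F, against 10.3 and 11.1 in cells over a limit. A Stmn1 UMI was found in 4.93% of low-cycle Mki67+ CD45-KO cells and 10.2% of those of LatY136F, so most had none.

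The Stmn1 ratio depended on the limits of the rule and on depth. Thinned to 1000 UMIs before the rule was applied, it was 3.46 in CD45-KO (2.0 to 5.40) and 1.63 in LatY136F (1.04 to 2.25). With 0 UMIs allowed in each set it was 0.32 in CD45-KO and 0.06 in LatY136F, with at least 2 Mki67 UMIs 2.10 and 1.34, and against matched Mki67-0 cells with or without a cycling programme 0.08 and 0.24; with 0 UMIs and against these cells the intervals included 0 in both libraries. Hmgb2, a chromatin protein of dividing cells, was at 489 against 399 CPM in low-cycle Mki67+ and matched CD45-KO cells (0.29, 0.16 to 0.42) and at 528 against 476 CPM in LatY136F (0.15, 0.05 to 0.25). In cells with 3 or more Mki67 UMIs it reached 9.60 UMIs per 10000 in CD45-KO and 7.65 in LatY136F, against 32.2 and 33.9 in cells over a limit.

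Gene by gene, the 2 cycle lists gave little beyond this. Of 25 counted G2/M genes, 12 were above 0 in both libraries and 3 below, with medians of 0.10 in CD45-KO and 0.08 in LatY136F; over all 9219 genes counted 27.7% were above 0 in both and 25.7% below. Cit, a kinase of cytokinesis, was past 1.5-fold in both, with 19 UMIs against 3 in CD45-KO and 26 against 13 in LatY136F. Over all genes 0.456% were past 1.5-fold higher in both libraries. Of 31 counted S phase genes, 7 were above 0 in both and 8 below, with medians of -0.00 and -0.00. Blm, a DNA helicase, was past 1.5-fold lower in both (11 against 22 UMIs, and 16 against 25), as were 0.564% of all genes. Thinned to 1000 UMIs before the rule was applied, the S phase medians were 0.15 and 0.33 and the G2/M medians 0.32 and 0.30. Against matched Mki67-0 cells with or without a cycling programme, the S phase medians were -0.15 and -0.22. The G2/M medians were then 0.07 and -0.00.

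Other genes abundant in dividing cells did not stand higher as a group. Of 32 chromatin, tubulin and related genes, 0 were past 1.5-fold in both libraries, beside 0.456% higher and 0.564% lower of all genes. In both libraries 11 were above 0 and 9 below, beside 27.7% and 25.7% of all genes, and the medians were 0.02 and 0.02. Tuba1b, an alpha-tubulin gene, was lower, at 159 against 189 CPM in CD45-KO (-0.25) and 174 against 202 CPM in LatY136F (-0.21). Ranbp1, a cofactor of nuclear transport, was at 59.4 against 82.4 CPM (-0.47) and 73.3 against 80.0 CPM (-0.13). G1 cyclins, their kinases and E2F genes had medians of -0.05 and -0.01, and cell cycle brakes -0.06 and -0.03. Among the brakes, Ccng1, a p53 target, was higher at 279.8 against 216 CPM (0.37) and 269.9 against 244 CPM (0.15), and Cdkn1a, which encodes p21, gave 29 against 40 and 71 against 89 UMIs.

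Across all genes, low-cycle Mki67+ and matched cells were close. Of 9219 genes with at least 20 UMIs over both groups in each library, 42 were past 1.5-fold higher in both (0.456%) and 52 past 1.5-fold lower in both (0.564%). In a single library, 451 were past 1.5-fold higher in CD45-KO (4.89%) and 228 in LatY136F (2.47%). Nearly all were low in count: with at least 100 UMIs, 1 gene was higher and 3 were lower in both libraries. The middle 90% of log2 ratios ran from -0.52 to 0.58 in CD45-KO and from -0.46 to 0.44 in LatY136F.

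By the interval bound nearest 0, Stmn1 led the higher end and Ifi27l2a came next. Ifi27l2a, an interferon-induced gene, gave 674 against 543 CPM in low-cycle Mki67+ and matched CD45-KO cells (0.31) and 955 against 795 CPM in LatY136F (0.26). Itga4, the alpha 4 integrin subunit that T cells use to enter tissue, gave 813 against 696 CPM in CD45-KO (0.22, 0.13 to 0.32) and 396 against 281 CPM in LatY136F (0.49, 0.37 to 0.62). S100a10, the partner of annexin A2, gave 977 against 818 CPM (0.26) and 1202 against 1065 CPM (0.18). Anxa2 itself gave 182 against 141 CPM (0.37) and 454 against 401 CPM (0.18), and Vim, which encodes the intermediate filament vimentin, 1576 against 1428 CPM (0.14) and 2115 against 1888 CPM (0.16); with at most 10% mitochondrial UMIs its CD45-KO ratio was -0.04. S100a6, a calcium-binding protein of effector T cells, had ratios of 0.17 and 0.11.

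The other named genes at that end were Syt11 (0.33 and 0.33), Ica1l (0.61 and 0.41), Ehbp1l1 (0.59 and 0.33), Dap (0.43 and 0.25) and Ap1s2 (0.42 and 0.43), all as log2 ratios for CD45-KO and LatY136F; thinned to 1000 UMIs, Syt11 was at -0.03 in CD45-KO. Syt11 and Ap1s2 act in vesicle traffic. The activation and effector list shared this direction: of 26 counted genes 13 were above 0 in both libraries and 3 below (27.7% and 25.7% of all genes), with medians of 0.12 and 0.08 beside 0.02 and -0.00 over all genes. Lag3, an inhibitory receptor gene induced on activation, was the 1 member past 1.5-fold in both, with 37 against 14 and 46 against 30 UMIs. S100a4 gave 0.29 and 0.17, and the costimulatory receptor gene Icos 0.36 and 0.08. Il2ra, the high-affinity IL-2 receptor chain, did not follow, at 0.02 in CD45-KO and -0.59 in LatY136F.

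**Figure D3:**
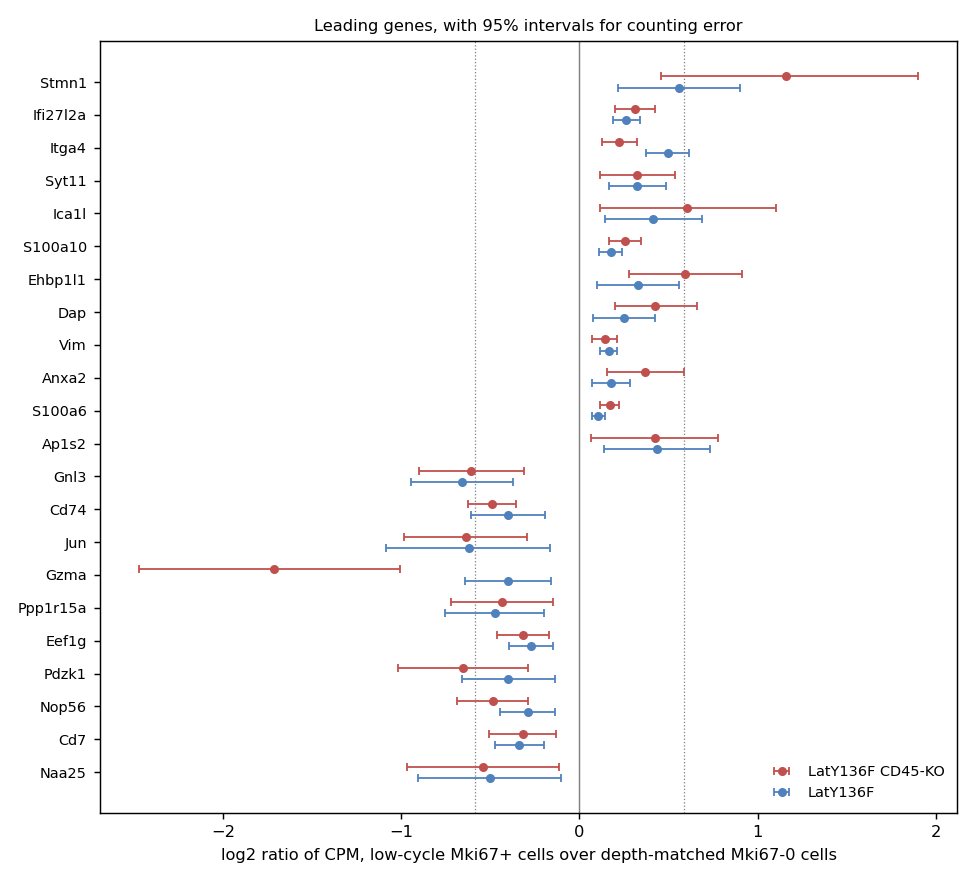
Log2 ratio of CPM in low-cycle Mki67+ over matched cells for the named genes at each end, in each library, with 95% exact intervals and dotted lines at 1.5-fold; Ccl6 and Slpi are left out of the plot. Stmn1 reaches 1.16 in CD45-KO, and each plotted gene lies on the same side of 0 in both libraries, which the naming rule requires.

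By the same bound Ccl6 and Slpi, both read in few cells, led the lower end, and Gnl3 came next. Gnl3 (chr14:31012433-31019152, minus strand, GRCm38) encodes nucleostemin, a nucleolar GTPase of growing cells. It gave 160 UMIs against 243 in CD45-KO, or 71.5 against 109 CPM (-0.61, -0.90 to -0.31), and 170 against 268 in LatY136F, or 49.4 against 78.0 CPM (-0.66, -0.94 to -0.37). Nop56, a protein of the box C/D particles that modify ribosomal RNA, gave 162 against 227 CPM (-0.49) and 188 against 229.8 CPM (-0.29). In the list of MYC targets and ribosome biogenesis, 21 of 27 counted genes were below 0 in both libraries and 2 above, beside 25.7% and 27.7% of all genes, and the medians were -0.20 and -0.13. Nop58 had -0.52 and -0.17, Nhp2 -0.44 and -0.46, and the nucleolar protein gene Npm1 -0.14 and -0.06. Gnl3 was the 1 member past 1.5-fold in both.

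Jun, an AP-1 subunit, gave 51.8 against 80.6 CPM in low-cycle Mki67+ and matched CD45-KO cells (-0.64) and 19.5 against 30.0 CPM in LatY136F (-0.62). It was the 1 member of the early receptor-induced list past 1.5-fold in both libraries, and with at most 10% mitochondrial UMIs its CD45-KO ratio was -0.17. Of 26 counted genes of that list, 16 were below 0 in both libraries and 1 above, beside 25.7% and 27.7% of all genes, with medians of -0.21 and -0.10. Nr4a1, an orphan nuclear receptor induced within hours of receptor signalling, gave 43 against 129 UMIs in CD45-KO (-1.59) and 78 against 111 in LatY136F (-0.51). Egr2 was at -1.30 and 0.16, and Irf4 at 0.59 and 0.03. Heat shock and dissociation stress genes were also lower, with medians of -0.12 and -0.03. Of 12 counted, 8 were below 0 in both libraries and 0 above, beside 25.7% and 27.7% of all genes. The part of stress genes in these ratios was not tested. With at most 10% mitochondrial UMIs per cell, the medians of CD45-KO and LatY136F were -0.13 and -0.15 for the early receptor-induced list and -0.19 and -0.11 for the ribosome biogenesis list.

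Ppp1r15a, a stress-induced phosphatase regulator (-0.43 and -0.47), the elongation factor gene Eef1g (-0.32 and -0.27), the T cell surface gene Cd7 (-0.32 and -0.34), Pdzk1 (-0.65 and -0.40) and Naa25 (-0.54 and -0.50) were lower over many cells. Cd74 had -0.49 and -0.40, but was read in 112 low-cycle Mki67+ and 106 matched CD45-KO cells and in 183 of each in LatY136F, and 226 of the 1054 UMIs of matched CD45-KO cells lay in 1 cell. Its CD45-KO ratio was 0.36 with non-T cells left out and 0.60 without matching. Ccl6, Slpi and, in CD45-KO, Gzma rested on few cells. Ccl6, a myeloid chemokine, gave 9 UMIs in 3 low-cycle Mki67+ cells against 182 in 10 matched cells of CD45-KO, and 6 in 3 against 63 in 4 in LatY136F; thinned to 1000 UMIs its CD45-KO ratio was 1.58. Slpi, a protease inhibitor gene, gave 795 UMIs in 12 cells against 1416 in 20, and 3 in 3 against 23 in 14, and without matching its CD45-KO ratio was 1.9. Gzma, a granzyme, gave 22 UMIs in 11 cells against 72 in 17, and 254 in 117 against 335 in 115, and with non-T cells left out its CD45-KO ratio was 0.21; thinned to 1000 UMIs its LatY136F ratio was 0.32. The 10 myeloid markers summed to 281 against 360.5 CPM in CD45-KO and 185 against 239 CPM in LatY136F, and the 11 B and plasma cell markers to 1149 against 1263 CPM and 209 against 367 CPM; their part in the ratios was not tested.

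**Figure D4:**
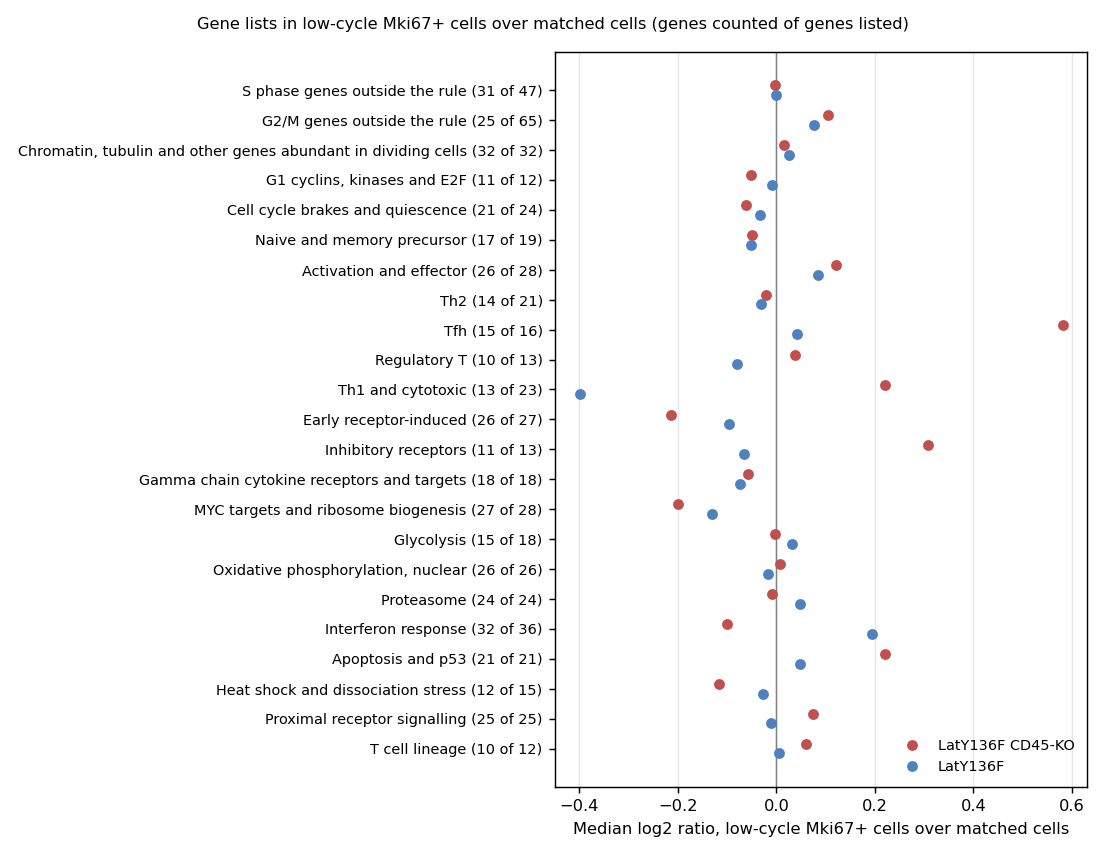
Median log2 ratio of low-cycle Mki67+ over matched cells for each gene list with at least 10 counted genes, in each library, with the number of genes counted of those listed. MYC targets lie at -0.20 and -0.13, early receptor-induced genes at -0.21 and -0.10 and activation genes at 0.12 and 0.08, while Tfh genes lie at 0.58 in CD45-KO and 0.04 in LatY136F.

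Genes of naive and memory precursor cells had medians of -0.05 in both libraries. Of 17 counted genes 3 were above 0 in both and 9 below, beside 27.7% and 25.7% of all genes. T helper 2 genes had medians of -0.02 and -0.03. Il4, the signature cytokine, gave 82 against 85 UMIs in CD45-KO and 98 against 150 in LatY136F (-0.61), and was detected in 6.05% against 5.82% and 6.02% against 7.97% of cells. Glycolysis (-0.00 and 0.03), oxidative phosphorylation (0.01 and -0.02) and proteasome genes (-0.01 and 0.05) had medians at the level of all genes. Ptprc itself gave 1213 against 1166 CPM in low-cycle Mki67+ and matched CD45-KO cells (0.06, -0.02 to 0.14) and 1849 against 1865 CPM in LatY136F (-0.01). Lat gave 358 against 349 and 446 against 439 CPM.

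T follicular helper (Tfh) genes, whose products mark the T cells that help B cells in germinal centres, stood higher in low-cycle Mki67+ than in matched cells of the CD45-KO library; the difference between the libraries was not tested. Of 15 counted genes, 15 were above 0 and 7 past 1.5-fold in CD45-KO, beside 4.89% of all genes; in LatY136F 8 were above 0 and 0 past 1.5-fold higher, beside 2.47% of all genes. Over all genes 52.6% were above 0 in CD45-KO and 49.4% in LatY136F. Sostdc1, a secreted BMP and WNT inhibitor known from Tfh cells, gave 315 UMIs in 38 low-cycle Mki67+ cells against 102 in 20 matched cells of CD45-KO (1.62, 1.30 to 1.96), and 108 in 18 against 85 in 24 in LatY136F (0.35, -0.08 to 0.77). Cxcr5, the receptor that guides cells into follicles, gave 52 against 19 UMIs (1.45) and 12 against 16 (-0.42). Tox2 gave 66 against 28 UMIs (1.23) and 88 against 78 (0.17), and Pdcd1, which encodes PD-1, 114 against 56 (1.02) and 110 against 112 (-0.03). By cells, Sostdc1 was in 4.26% of low-cycle Mki67+ CD45-KO cells (3.03 to 5.79%) and 2.24% of their matched cells (1.37 to 3.44%), with overlapping intervals. In LatY136F it was in 1.35% of low-cycle Mki67+ and 1.80% of matched cells, so the Sostdc1 ratios of both libraries concern a small minority. With non-T cells left out, the list medians were 0.51 and 0.03.

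More genes were past 1.5-fold between the genotypes, in 1 contrast, than between low-cycle Mki67+ and matched cells of a single library. Of 9219 genes, the latter comparison had 451 higher and 369 lower in CD45-KO, and 228 and 280 in LatY136F. Of 9599 genes counted between the genotypes, 839 were past 1.5-fold higher in CD45-KO (8.74%) and 586 past 1.5-fold lower (6.10%), with 235 and 242 among genes with at least 100 UMIs. Ptprc, at the levels given above, had a log2 ratio of -0.61 (-0.67 to -0.54), beside -0.68 in matched cells. Mki67 itself was at 528 and 499 CPM (0.08), a value the rule used.

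The largest ratios were of genes read in few cells. Jchain gave 1350 UMIs in 15 low-cycle Mki67+ CD45-KO cells, 705 of them in 1 cell, and 4 UMIs in 4 LatY136F cells. Mzb1 gave 146 UMIs in 7 cells against 1 in 1, and Slpi 795 in 12 against 3 in 3. The MHC class II genes H2-Ab1 (2.45) and H2-Aa (2.45) and Cd74 (1.77) were higher as well, Cd74 with UMIs in 112 CD45-KO and 183 LatY136F cells. B and plasma markers summed to 1149 and 209 CPM in low-cycle Mki67+ cells of CD45-KO and LatY136F, and their part in ratios of other genes was not tested.

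Among T cell genes, Sostdc1 stood at 141 CPM in CD45-KO and 31.4 CPM in LatY136F low-cycle Mki67+ cells (2.16), and its ratio in matched cells was 0.89. Ikzf2, the Helios transcription factor, gave 96.1 and 24.1 CPM (1.99; 1.67 in matched cells), Penk, the enkephalin precursor, 60.8 and 14.5 CPM (2.06; 1.92, and -0.35 in low-cycle Mki67+ cells with 0 UMIs in each set) and Ifi208, an interferon-inducible PYHIN gene, 90.7 and 22.1 CPM (2.04; 3.31). Penk was read in few cells, 28 of CD45-KO and 39 of LatY136F, and 54 of its 136 CD45-KO UMIs lay in 1 cell. Naive and memory precursor genes had a median of 0.58 (0.54 in matched cells), with 9 of 18 past 1.5-fold higher and 0 lower, beside 8.74% and 6.10% of all genes. Tcf7, a factor of self-renewing T cells, led by count at 415 and 178 CPM (1.22; 1.18). Tfh genes had a median of 0.76 against 0.40 in matched cells, with 10 of 15 past 1.5-fold higher, beside 8.74% of all genes, among them Pou2af1 (2.83; 1.36) and Bcl6 (1.80; 0.40).

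The genes named as lower in CD45-KO than in LatY136F low-cycle Mki67+ cells included Gzmb and Anxa2. Gzmb, which encodes granzyme B, gave 23.7 CPM in CD45-KO and 100.1 CPM in LatY136F (-2.08; -2.71 in matched cells), and Gzma 9.83 and 73.9 CPM (-2.91; -1.60). Anxa2 gave 182 and 454 CPM (-1.32; -1.51), Lgals7, a galectin, 275 and 645 CPM (-1.23; -1.24) and F2r, the thrombin receptor, 142 and 355 CPM (-1.32; -1.32). Camk2b (-1.74), Car5b (-1.79), Pglyrp1 (-1.37), Ifi204 (-1.36) and Hdc, which encodes the histamine-forming enzyme (-1.46), completed the named genes at this end. Activation genes had a median of -0.37 (-0.38 in matched cells), with 1 of 27 higher and 5 lower past 1.5-fold, beside 8.74% and 6.10% of all genes.

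More G2/M genes outside the rule were past 1.5-fold lower than higher in CD45-KO. Of 35 counted, 10 were past 1.5-fold lower and 2 higher, beside 6.10% and 8.74% of all genes, and 23 were below 0, beside 46.6%. Their median was -0.22, and -0.26 in matched cells. Of 37 S phase genes 3 were past 1.5-fold lower and 2 higher, with a median of 0.03 (-0.17 in matched cells), beside 0.02 over all genes. Stmn1 was lower in CD45-KO (-1.05; -1.65 in matched cells), as was Kif23, a kinesin of cytokinesis, with 14 UMIs in CD45-KO and 165 in LatY136F (-2.94; -3.25), and Ncapd2, a condensin subunit, with 51 and 119 UMIs (-0.60). Interferon response genes had a median of -0.23 in low-cycle Mki67+ cells and 0.05 in matched cells, with 27 of 33 below 0 in low-cycle Mki67+ cells, beside 46.6% of all genes. Th1 and cytotoxic genes had 0.80 in low-cycle Mki67+ and 0.06 in matched cells, with Ccl5 (2.50) and Eomes (1.58) higher and both granzymes lower. Ccl5 rested on 107 UMIs in 7 CD45-KO cells, 70 of them in 1 cell, and the list median was 0.29 after thinning to 1000 UMIs and 0.03 with at least 2 Mki67 UMIs.

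**Figure D5:**
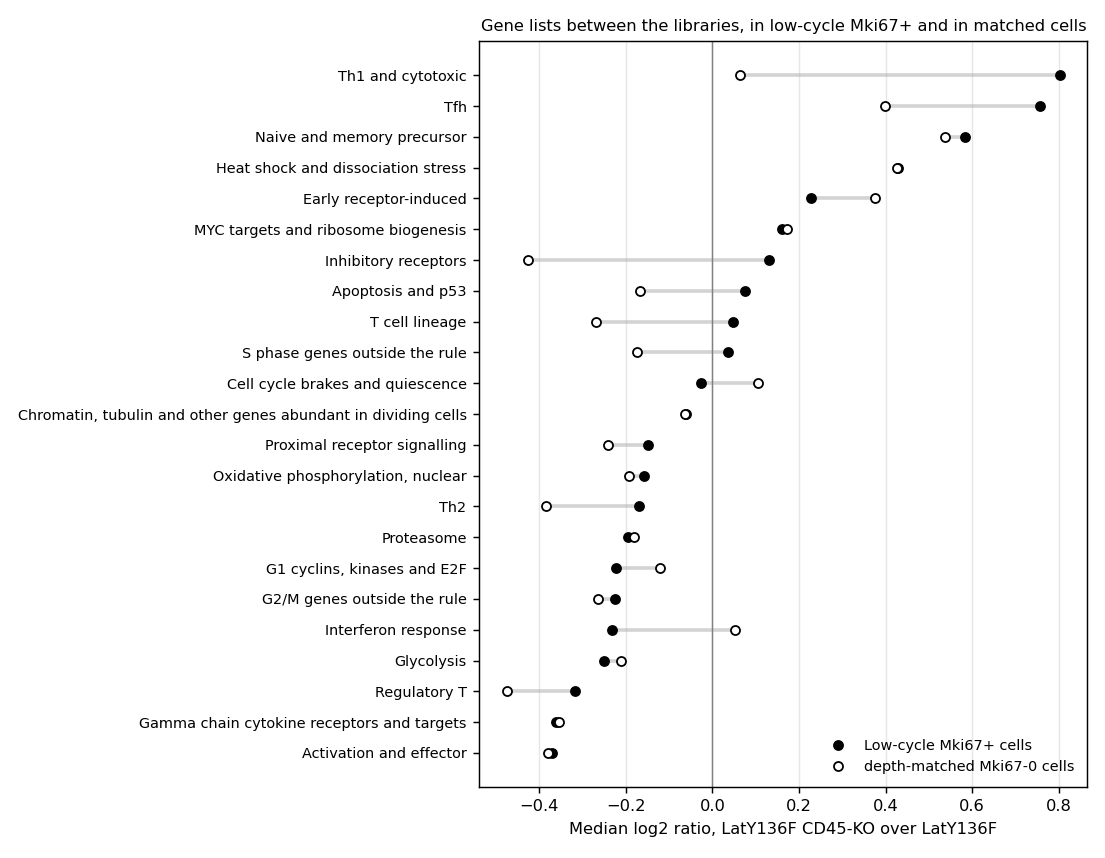
Median log2 ratio of CD45-KO over LatY136F for each gene list with at least 10 counted genes, in low-cycle Mki67+ cells (filled) and matched Mki67-0 cells (open). Most lists have both points on the same side of 0; Tfh genes lie at 0.76 and 0.40, Th1 and cytotoxic genes at 0.80 and 0.06, and interferon response genes at -0.23 and 0.05.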

How the data were processed

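Single-cell RNA-seq was analysed from 1 table of UMI counts per genotype. The deposited values are whole-number counts per gene and cell after error correction of the UMIs. Per the file headers, the authors made them with the BD Rhapsody analysis pipeline 1.9.1 against GRCm38 with GENCODE M19; the series design text gives pipeline version 2.0 and the submitters' processing notes give GRCm39. The header was followed here. The rule and the matching were applied to cells of 200 genes or more and a mitochondrial share of 25% or less, which kept 12834 of 12845 LatY136F CD45-KO cells and 13747 of 13775 LatY136F cells; no doublet caller was run and doublets were kept. The members of the rule and all gene lists were chosen with earlier results of these data known.

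Counts were summed over the cells of a group, scaled to CPM and compared as log2 ratios with exact conditional binomial intervals. Shares have exact binomial (Clopper-Pearson) intervals and UMIs per 10000 have exact Poisson intervals, all at 95% and for counting error only. The sums were checked on simulated counts. Genes needed 20 UMIs over both groups, and the 21 genes of the rule were left out. A gene was counted as past 1.5-fold (0.58 on the log2 scale) in both libraries for low-cycle Mki67+ over matched cells, and in the 1 contrast for genotypes. Named genes are the 12 highest and 12 lowest (10 for genotypes) with at least 50 CPM and the same sign in both libraries, ranked by the interval bound nearest 0, and up to 4 per list with at least 20 CPM. Not ranked were antigen receptor segments, sex-linked genes, unnamed models, and the mitochondrial, haemoglobin and ribosomal protein genes. Hmgb2, Ccna2, Cdc25b, Smc4, Cit, Blm, Lag3, Npm1, the genes of the rule and the T cell markers were named outside these rules, after their values were seen. Tools were Python 3.11.15, numpy 2.4.6, scipy 1.17.1, pandas 2.3.3 and matplotlib 3.10.9.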

Additional observations from a re-analysis of the deposited data

Results flagged for a closer look

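Of 28 gene lists with a value, 11 had medians of opposite sign in the 2 libraries, 8 of them with at least 10 counted genes. In 3 of these 8 the medians differed by 0.2 or more, and in the others by at most 0.12. Those 3 follow; the median log2 ratio of low-cycle Mki67+ over matched cells is given for each library. Th1 and cytotoxic genes were at 0.22 in the CD45-KO library and -0.40 in the LatY136F library, a difference of 0.62. In that list Nkg7, a granule membrane gene, gave 89 against 35 UMIs in CD45-KO (1.34) and 69 against 110 in LatY136F (-0.67), and the T-box factor gene Eomes 76 against 47 (0.69) and 39 against 75 (-0.94). Inhibitory receptor genes were at 0.31 and -0.07, a difference of 0.37, with Btla at 252 against 166 UMIs in CD45-KO (0.60) and 131 against 158 in LatY136F (-0.27). Interferon response genes were at -0.10 and 0.19, a difference of -0.29, with Ifi208 at 203 against 232 UMIs (-0.20) and 76 against 36 (1.08), and Mx1 at 16 against 12 (0.41) and 70 against 36 (0.96). With 1 library per genotype the difference was not tested for any of the 3. The inhibitory receptor median of LatY136F was 0.07 both without matching and with 0 UMIs in each set, and the interferon median of CD45-KO was 0.04 with 0 UMIs in each set, so the opposite signs were lost there; under the other settings run, and for Th1 and cytotoxic genes under all, the signs were kept.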

How the results depend on the processing

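No paired analysis was possible because each genotype has 1 library and the labels give no replicate numbers. The low-cycle Mki67+ share followed the rule's limits. With at most 10% mitochondrial UMIs it was 7.92% in CD45-KO, and in LatY136F it stayed within the interval of 9.19 to 10.2% given above. In CD45-KO and LatY136F it was 1.64% and 2.08% with at least 2 Mki67 UMIs, 3.02% and 3.25% with 0 UMIs in each set, 7.64% and 11.4% with at most 5, and 4.42% and 5.80% after thinning to 1000 UMIs. It was higher in LatY136F under each of these settings. Genes past 1.5-fold in both libraries numbered 102 higher and 130 lower against all Mki67-0 cells under the limits without matching, 86 higher with at least 2 Mki67 UMIs, and 1 and 3 with at least 100 UMIs per gene, which also left 235 and 242 between genotypes; fewer genes qualify there. Direction was lost for Slpi in CD45-KO (1.9 without matching, 0.19 with 3 matched cells per member) and in LatY136F (2.54 with at most 5), Gzma in CD45-KO (0.32 with at least 2 Mki67 UMIs, 1.00 with 0 UMIs in each set, 0.21 without non-T cells) and in LatY136F (0.10 with at least 2 Mki67 UMIs, 0.32 thinned), Cd74 in CD45-KO (0.60 without matching, 0.03 against matched cells with or without a cycling programme, 0.28 with 0 UMIs in each set, 0.36 without non-T cells) and in LatY136F (0.02 without matching), Vim in CD45-KO (-0.04 with at most 10% mitochondrial UMIs), Syt11 in CD45-KO (-0.03, thinned), Ccl6 in CD45-KO (1.58, thinned) and Penk between genotypes (-0.35 with 0 UMIs in each set); the cause was not tested. The setting with 3 matched cells per member was chosen after seeing the data. Of 683 values of named genes under other settings 17 had another sign, and of 663 list medians 93, none of which was past 1.5-fold. Genes with 3 or fewer UMIs in both groups, and lists with under 3 counted genes, gave no value. Depth limits the reading: 1 Mki67 UMI defines most of the cells, and the S phase medians differ between settings.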
